A study of Mus musculus with 6 samples.

Results

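Genes for kinesin motors, centromere proteins and the mitotic spindle were followed in immortalized mouse proximal tubular cells carrying a short hairpin RNA against Glis2 or, as control, one against GFP. Members were chosen by gene symbol from the array's annotation: kinesin genes other than Kif3a and Kif3b, single-letter Cenp genes, Aurora kinases, A and B cyclins and further mitotic genes named singly. The choice found 79 genes of 19057 on the array. A gene's value is that of its brightest probe on average, and a gene counts as above background when that mean exceeds an intensity of 138.

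The study compared 3 arrays labelled Control, cells with the anti-GFP hairpin, with 3 labelled Glis2KD, cells with the anti-Glis2 hairpin. All 6 come from an immortalized proximal tubular line whose strain background is given as C56BL/6, infected with lentivirus and harvested after 7 days. The labels name 1 hairpin per target and do not state if each of a group's 3 samples was infected or cultured separately, and the p-values therefore describe sample-to-sample spread that could be technical. Effects of the hairpin, of the infected population and of Glis2 itself cannot be told apart in this design.

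Glis2, the targeted zinc finger gene, read 278, 234 and 230 on the control arrays and 169, 161 and 176 on the knockdown arrays, a log2 fold change of -0.55 ± 0.092 (SE, n = 3 arrays per group, limma's adjusted p = 6.32e-05). The submitters state a knockdown above 80%, whose method is not given, and array intensities include background. With background subtracted the log2 fold change of Glis2 was -1.27 (limma's adjusted p = 0.0201). The second-brightest Glis2 probe gave -0.36 without subtraction. Each of these falls is smaller than the one stated, and the reason was not tested. Of 9 proximal tubule markers measured, Aqp1 and Mme were above background and both were called lower, while Lrp2, Cubn, Slc34a1, Slc5a2, Slc22a6, Anpep and Hnf4a were not. The summed intensity of the 9 ran from 10847 to 12386 in control and from 1272 to 1488 in knockdown cells, a sum over different probes that rests mostly on Aqp1, with means of 9760 and 365. Of 8 markers of other nephron segments Slc12a1 and Slc12a3 were above background and none was called. None of 5 endothelial markers was above background, and neither were the leukocyte gene Ptprc or the fibroblast genes Pdgfra, Pdgfrb and Col1a1. Among the leukocyte and fibroblast markers Csf1r was called higher and Dcn lower, both above background, and Col1a2 was called higher below it. The part of these markers in the results below was not tested.

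Mitosis depends on cyclin-dependent kinase activity for entry, on kinesins that build and slide spindle microtubules, and on kinetochores that grip those microtubules at the centromere. A checkpoint holds back the anaphase-promoting complex until every kinetochore is attached, and the central spindle then guides cytokinesis. Many of these transcripts are made mainly in G2 and M, so their level in a culture follows how many cells divide. Other kinesins carry cargo along microtubules in resting cells, and damaged kidney tubules are known to re-enter the cell cycle.

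Calls among the members went in both directions. Of 79 members, 29 were called by limma at an adjusted p under 0.05 over all 19057 genes, 15 lower and 14 higher in the knockdown. Without the 21 kinesins of transport and other roles, 13 of 58 were lower and 8 higher, all among the 49 above background. The median log2 fold change of those 49 was -0.12. Of all genes above background 22% were called lower and 21.4% higher, and their median was -0.01. The 21 kinesins left out held 6 of the 14 calls higher, and the roles were placed with earlier results known. Lower transcripts included Nusap1, Spc25, Top2a, Cdc25b and both Aurora kinases Aurka and Aurkb, with log2 fold changes from -1.03 to -0.33. Higher transcripts included the transport kinesins Kif1a, at least 2.79-fold higher since its control arrays lay under the limit, and Kif5c at a log2 fold change of 1.27, and the centromere genes Cenpv and Cenpw at 0.76 and 0.67. RNA came from whole cultures, so fewer cells in mitosis and less RNA per cell cannot be told apart.

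Across all genes 22.5% were called, 11.4% lower and 11.2% higher. Among the 9577 genes above background the share was 43.4%, with 22% lower and 21.4% higher. Of the members, 62 were above background, and these held all 29 calls. Set against the genes above background, the number of calls among the members is thus near the background and is not a result about the family as such. The median log2 fold change was -0.02 over the 79 members and 0.00 over all genes. Above background the medians were -0.07 for the 62 members and -0.01 for all genes. Control and knockdown arrays did not overlap in 36 of the 79 members, where 32.3% of all genes and 52.4% of those above background were free of overlap. Of the called genes 28 of 29 members and 4141 of all 4291 did not overlap, Kif9 being the exception among the members.

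**Figure D1:**
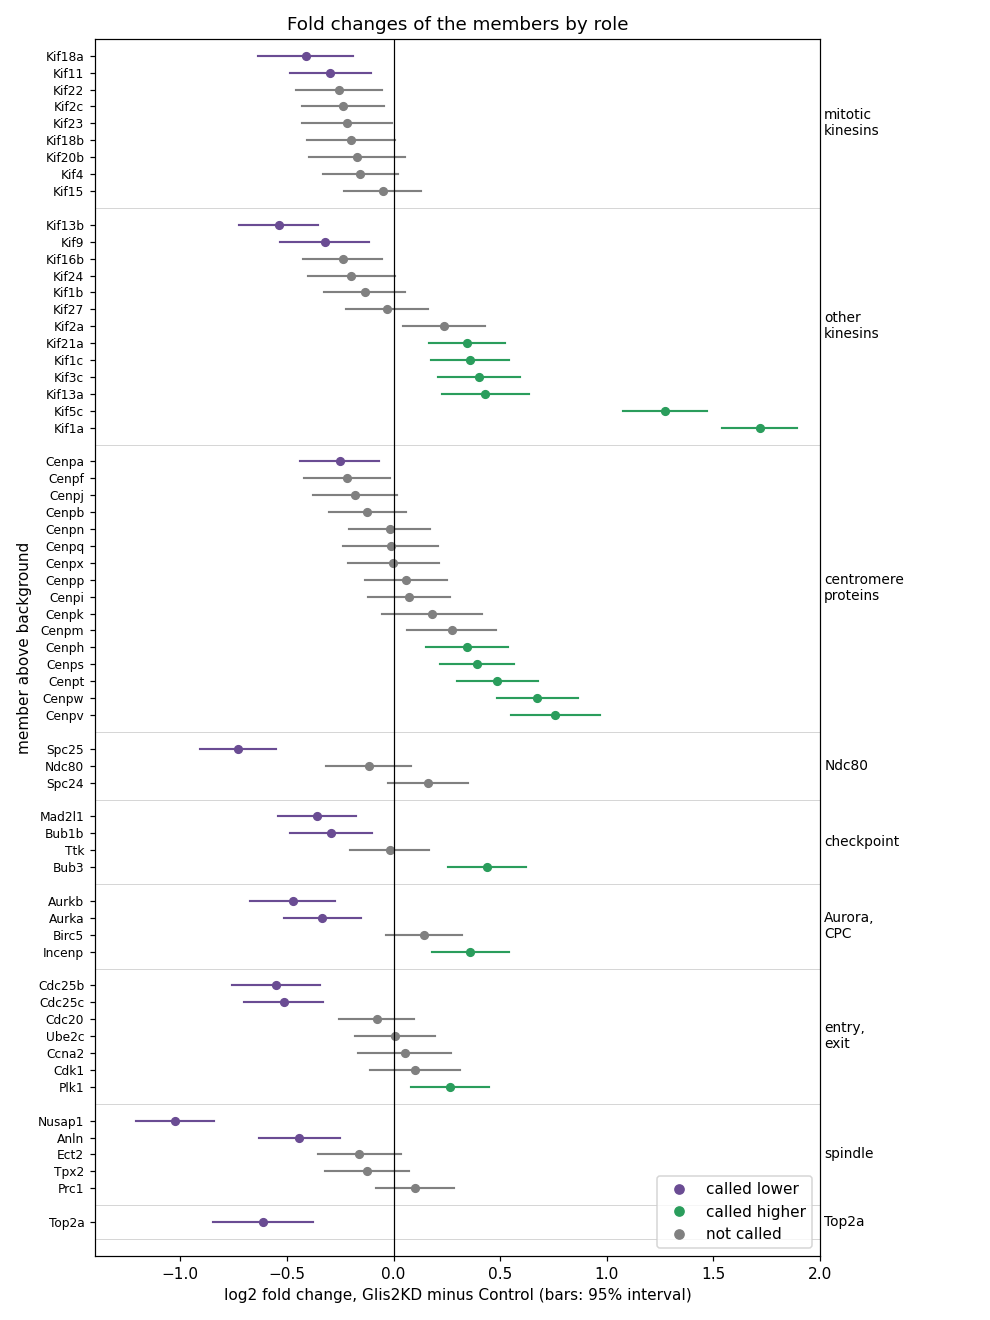
Log2 fold change of each of the 62 members above background, knockdown minus control, with its 95% interval from limma (n = 3 arrays per group), sorted within roles. The 9 genes placed in the role of mitotic kinesins all lie left of 0 while 2 of them were called. The roles were placed with earlier results known, and the shared side depends on that placement. Kif2a, a paralog of Kif2c placed with the other kinesins, lies right of 0, and Kif1a and Kif5c lie farthest to the right.

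Promoter letters are shown for members that were called, to set side by side genes that went in opposite directions. The sequences are those of RefSeq, build GRCm38.p6, which held a window of 250 bases before to 50 bases after the start for 68 of the 79 members and for 27025 genes in all. Searched on both strands were TTTGAA, a form of the cell cycle homology region (CHR) that MuvB complexes bind in mitotic genes, and its variant TTCGAA. Also searched were the box bound by NF-Y, spelled CCAAT, and a core of Gli-type sites, spelled GACCACCCA. In the stretches printed, matches overlap only in Cenpw, by 1 base. Each line gives the 150 bases before the start, 5′ to 3′ on the gene's strand, with matches to the CHR form, its variant and the NF-Y box in capitals.
Nusap1, lower, chr2:119618148-119618297, plus strand: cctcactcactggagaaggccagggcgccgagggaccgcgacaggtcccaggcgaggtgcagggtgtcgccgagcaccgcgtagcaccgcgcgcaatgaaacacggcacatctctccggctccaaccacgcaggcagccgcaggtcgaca
Top2a, lower, chr11:99024190-99024339, minus strand: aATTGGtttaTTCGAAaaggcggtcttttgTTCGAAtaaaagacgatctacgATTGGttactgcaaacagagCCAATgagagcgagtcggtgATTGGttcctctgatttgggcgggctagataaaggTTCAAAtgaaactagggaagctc
Kif11, lower, chr19:37376232-37376381, plus strand: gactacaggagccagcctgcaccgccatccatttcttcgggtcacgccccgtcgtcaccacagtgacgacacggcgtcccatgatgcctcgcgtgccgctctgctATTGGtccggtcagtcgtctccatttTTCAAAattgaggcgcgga
Spc25, lower, chr2:69206214-69206363, minus strand: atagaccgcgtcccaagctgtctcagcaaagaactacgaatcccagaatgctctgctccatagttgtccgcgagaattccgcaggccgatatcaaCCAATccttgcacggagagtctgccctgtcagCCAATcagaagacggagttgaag
Aurka, lower, chr2:172370571-172370720, minus strand: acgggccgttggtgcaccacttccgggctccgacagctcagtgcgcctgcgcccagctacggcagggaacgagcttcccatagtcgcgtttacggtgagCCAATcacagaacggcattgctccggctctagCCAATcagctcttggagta
Bub3, higher, chr7:131560220-131560369, plus strand: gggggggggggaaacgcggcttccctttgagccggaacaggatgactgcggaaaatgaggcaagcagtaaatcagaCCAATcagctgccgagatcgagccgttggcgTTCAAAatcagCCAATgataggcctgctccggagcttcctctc
Cenpw, higher, chr10:30200541-30200690, minus strand: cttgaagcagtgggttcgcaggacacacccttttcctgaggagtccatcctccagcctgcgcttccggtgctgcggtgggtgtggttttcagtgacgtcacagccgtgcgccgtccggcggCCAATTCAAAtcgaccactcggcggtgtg
Plk1, higher, chr7:122159285-122159434, plus strand: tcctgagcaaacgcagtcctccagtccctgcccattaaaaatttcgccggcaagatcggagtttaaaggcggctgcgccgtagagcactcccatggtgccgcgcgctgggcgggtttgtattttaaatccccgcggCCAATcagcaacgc

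In these stretches members of both directions carried the CHR form and the NF-Y box, the variant stood in Top2a alone of the 8, and Nusap1, the member that fell most, carried none of them. Over the 300-base windows TTTGAA matched in 30 of 68 members (44.1%), against 20.2% of all genes in the table. It matched in 7 of 12 members called lower, 4 of 13 called higher and 19 of 43 not called. Of the 14 members called higher 6 are kinesins of transport and other roles, so direction and role cannot be told apart in these counts. Spc25, Aurka and Plk1 hold their match 25, 33 and 31 bases after the start, beyond the stretch printed. Among kinesins the letters divided by role as placed here, with the CHR form in 8 of 9 mitotic kinesin genes and in 2 of 17 others. Kif2a, a paralog of the mitotic kinesin Kif2c, and Kif2b were placed with the others. The roles were set with earlier results known, so this division depends on the placement. The NF-Y box matched in 55.9% of members and 41.1% of all genes, the CHR variant in 8.82% and 1.8%. The CHR form and the NF-Y box stood together in 1 window in 35.3% of members and 7.97% of all genes. The Gli-type core matched in 0 of 68 members and in 0.289% of all genes. A spelling this rare would seldom be met in 68 genes, so the lack of a match says nothing about Glis2 sites here. These matches are descriptions of letters only.

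Spindle assembly and cytokinesis genes were lower or not called. Of 5 above background 2 were called, Nusap1 and Anln, beside 43.4% of all genes above background. Nusap1, a microtubule-bundling protein of the spindle, read 5539, 5579 and 5585 on the control arrays and 2991, 2644 and 2585 on the knockdown arrays. The groups lay far apart, with a log2 fold change of -1.03 ± 0.088 (SE, n = 3, limma's adjusted p = 2.73e-09). The 2 further Nusap1 probes above background had -0.26 and -0.32. Anln, the actin-binding anillin of the cleavage furrow, read 16112, 14155 and 13099 in control and 10416, 10831 and 10567 in knockdown cells, all 3 below every control array. Its log2 fold change was -0.44, and -0.81 on a dimmer probe. Top2a, the topoisomerase that untangles sister chromatids, was placed in a role of its own. It read 6917, 6257 and 7764 in control and 5252, 3657 and 4886 in knockdown cells. The second knockdown array was the lowest, and the log2 fold change was -0.61 ± 0.11 (SE, n = 3, limma's adjusted p = 0.000192), with -0.45 and -0.16 on 2 dimmer probes.

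In the role of Nusap1 and Anln, Prc1, which bundles antiparallel microtubules of the central spindle, had a log2 fold change of 0.10 with a 95% interval from -0.08 to 0.28. Tpx2, an activator of Aurora A, had -0.12 (-0.32 to 0.07), and Ect2, which acts in cytokinesis, had -0.16 (-0.36 to 0.03). These 3 were not called, and their intervals leave room for changes in either direction of the sizes given. Racgap1 was not above background on its probe. With background subtracted Top2a had -0.63, no smaller than before, but its call was lost (limma's adjusted p = 0.112, the highest of its alternatives, which began at 7.95e-06).

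**Figure D2:**
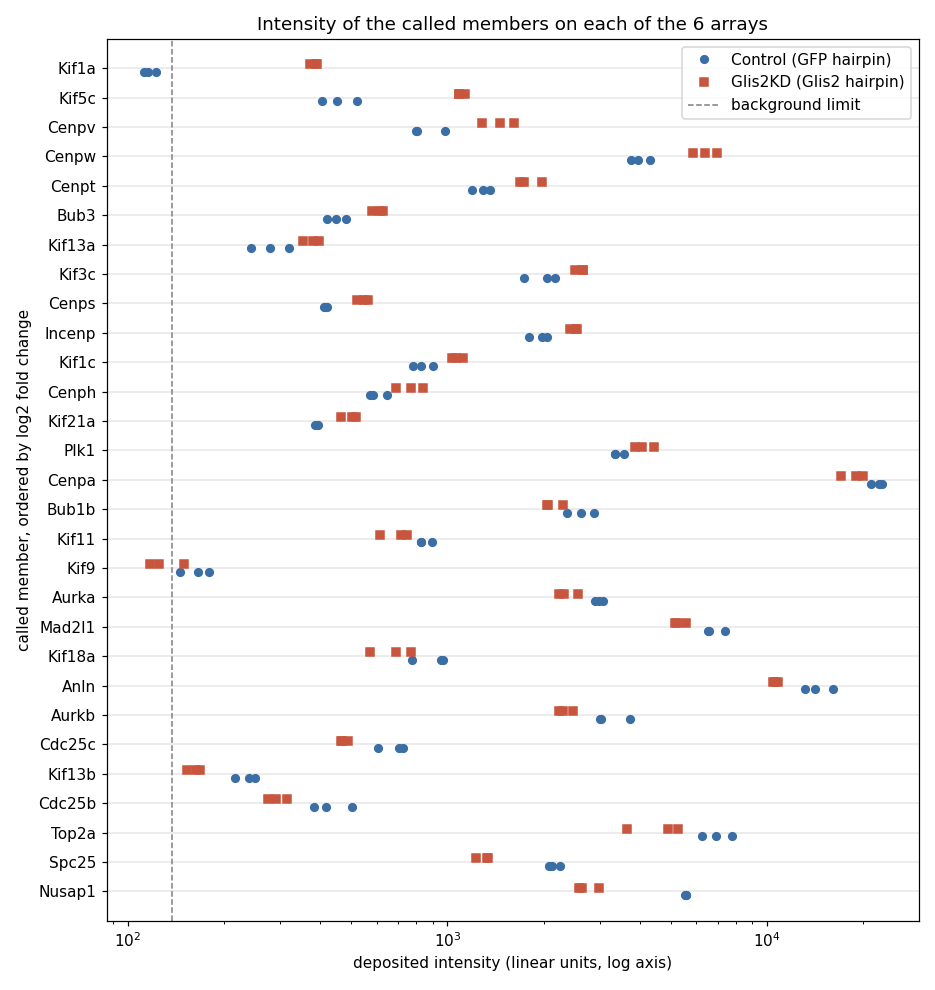
Deposited intensity of the 29 called members on each array, on a log axis, with Control arrays as circles and Glis2KD arrays as squares (3 each) and the background limit of 138 as a dashed line. Members are ordered by log2 fold change from Nusap1 at -1.03 to Kif1a at 1.72, and Kif9 alone has overlapping groups.

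The kinetochore and its checkpoint were divided. Spc25, a subunit of the Ndc80 complex that binds microtubules, read 2124, 2250 and 2085 in control and 1226, 1339 and 1326 in knockdown cells. The groups were clearly apart, at -0.73 ± 0.086 on the log2 scale (SE, n = 3, limma's adjusted p = 4.71e-07), and a second probe gave -0.47. Its partners were not called: Ndc80 had a log2 fold change of -0.12 (95% interval -0.32 to 0.08) and Spc24 had 0.16 (-0.02 to 0.35), while Nuf2 was not above background. The second probe of Spc24 gave -0.35 with limma's adjusted p = 0.0519, opposite in sign to the probe used.

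Among checkpoint genes, Mad2l1, whose protein restrains the anaphase-promoting complex, read 6527, 6599 and 7379 in control and 5585, 5227 and 5164 in knockdown cells. It fell by 0.36 on the log2 scale, and a second probe gave -0.27. Bub1b, the checkpoint protein BubR1, read 2878, 2626 and 2372 in control and 2061, 2305 and 2047 in knockdown cells, with little room between the groups. Its log2 fold change was -0.29, and the call was lost without any of 4 arrays (limma's adjusted p between 0.0577 and 0.146). Bub3, which partners Bub1 and BubR1, moved the other way, from 482, 448 and 420 to 630, 615 and 581, a log2 fold change of 0.44 ± 0.088 (SE, n = 3, limma's adjusted p = 0.000489). A dimmer Bub3 probe, near the background limit, gave -0.04. Ttk, the Mps1 kinase, had -0.02 on a probe close to background, with a mean intensity of 166, and was not called. Bub1 was not above background.

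Both mitotic Aurora kinases were lower. Aurka, which matures centrosomes, read 2904, 3060 and 2970 in control and 2313, 2555 and 2232 in knockdown cells, a log2 fold change of -0.33. Aurkb, the kinase of the chromosomal passenger complex that corrects faulty attachments, read 2995, 3014 and 3734 in control and 2292, 2228 and 2475 in knockdown cells, a log2 fold change of -0.47. Incenp, the scaffold of that complex, went the other way, from 2053, 1797 and 1982 to 2537, 2527 and 2411, a log2 fold change of 0.36. Survivin, Birc5, another subunit, had 0.14 (95% interval -0.03 to 0.32) and was not called, with 0.12 and 0.13 on 2 further probes. The complex's kinase and its scaffold were thus called in opposite directions. With background subtracted Aurkb had -0.49, and its call was lost (limma's adjusted p = 0.0645). Aurkc, the germ-line paralog, was not above background.

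Of 7 genes of mitotic entry and exit above background 3 were called, near the 43.4% called among all genes above background. The phosphatases Cdc25b and Cdc25c, which activate Cdk1, were lower. Cdc25b read 416, 382 and 502 in control and 291, 315 and 275 in knockdown cells (log2 fold change -0.55), and Cdc25c read 724, 608 and 707 against 489, 467 and 466 (-0.52), with -0.44 on a second Cdc25c probe. Plk1, the polo-like kinase that acts on Cdc25 phosphatases, was higher, from 3579, 3349 and 3347 to 3860, 4059 and 4440, a log2 fold change of 0.26 with limma's adjusted p = 0.0308. Its call was lost without any of 4 arrays, at limma's adjusted p from 0.0627 to 0.159, and with background subtracted or normexp correction (0.0737 and 0.112). Cdk1 itself had 0.10 (95% interval -0.11 to 0.31), and its cyclin partner Ccna2 0.05 (-0.17 to 0.27) on a dim probe with a mean intensity of 205. Cdc20, the activator of the anaphase-promoting complex, had -0.08 (-0.25 to 0.10), and the ubiquitin-conjugating enzyme Ube2c 0.01 (-0.18 to 0.20). With background subtracted Cdc25b had -0.82, and its call was lost (limma's adjusted p = 0.0537). All 4 Cdc20 probes had log2 fold changes between -0.08 and 0.07. Ccna1 and Ccnb2 were not above background.

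The mitotic kinesins shifted little. Of 10 placed in this role, 9 were above background, with log2 fold changes from -0.41 to -0.05, and 2 were called, both lower. Among all genes above background 43.4% were called, 22% lower. Kif18a, which caps and shortens kinetochore microtubules, read 958, 967 and 777 in control and 693, 572 and 771 in knockdown cells, where the highest knockdown array came within a few units of the lowest control array. Its log2 fold change was -0.41 ± 0.11 (SE, n = 3, limma's adjusted p = 0.00565). Kif11, the tetrameric motor that pushes spindle poles apart, read 893, 827 and 826 in control and 614, 717 and 750 in knockdown cells, a log2 fold change of -0.30. With background subtracted they had -0.48 and -0.35, and both calls were lost (limma's adjusted p = 0.213 and 0.136), as they were without 1 array: Kif18a without the second knockdown array (0.0681), Kif11 without the first control or first knockdown array (0.0974 and 0.158).

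Of the mitotic kinesins not called, Kif23, a motor of the central spindle, had -0.22 (95% interval -0.43 to -0.01), Kif22, which moves chromosome arms, -0.26 (-0.46 to -0.05), and Kif20b -0.17 (-0.40 to 0.05). The other 4, Kif2c, Kif18b, Kif4 and Kif15, lay between -0.24 and -0.05. Kif20a was not above background. For the genes above background as a whole the median log2 fold change was -0.01, against -0.22 for these 9 kinesins. These are medians, given without a test. They depend on the roles, which were placed with earlier results known. Kif2a, a paralog of Kif2c placed with the other kinesins, had 0.24 (95% interval 0.05 to 0.43) and was not called. Had Kif2a been placed beside Kif2c, the mitotic kinesins above background would not share a sign. Kif2b, placed there too, was not above background.

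Kinesins of transport and other roles ranged most widely, from -0.54 to 1.72, with 6 of 21 called higher and 2 lower. Of the 13 above background 8 were called, beside 43.4% of all genes above background. Kif1a, the motor of synaptic vesicle precursors, read 123, 112 and 116 in control, all under the background limit, and 389, 372 and 392 in knockdown cells. It was at least 2.79-fold higher, with a fitted log2 fold change of 1.72 ± 0.085 (SE, n = 3, limma's adjusted p = 1.47e-13), and a dimmer probe gave 0.33. Kif5c, a conventional kinesin heavy chain known mainly from neurons, read 450, 404 and 521 in control and 1084, 1136 and 1087 in knockdown cells, well apart, at 1.27 ± 0.095 (SE, n = 3, limma's adjusted p = 2.59e-10). Its second probe was not above background. The other heavy chains Kif5a and Kif5b were not above background either.

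Smaller increases were found for Kif13a, which carries endosomal cargo, from 278, 243 and 320 to 353, 396 and 379, and for Kif3c, a subunit of heterotrimeric kinesins, from 2050, 1735 and 2165 to 2657, 2661 and 2505. Their log2 fold changes were 0.43 and 0.40. Kif1c, a motor of vesicle transport, read 904, 782 and 827 against 1032, 1064 and 1122, and Kif21a, which slows microtubule growth at the cell cortex, read 385, 391 and 393 against 466, 502 and 517. They had 0.36 and 0.34, and none of these 4 had overlapping groups. Kif13b, a paralog of Kif13a, went in the opposite direction, from 239, 216 and 250 to 164, 153 and 168, a log2 fold change of -0.54 with limma's adjusted p = 4.78e-05. A second Kif13b probe, barely above background, gave 0.27. Kif9, a motor of motile cilia, read 179, 166 and 146 against 150, 125 and 118, overlapping and with 2 knockdown arrays under the limit, at -0.32. With background subtracted Kif13a, Kif3c and Kif9 had 0.68, 0.42 and -1.18, and all 3 calls were lost (limma's adjusted p = 0.115, 0.073 and 0.245). Kif9 also lost its call without any of 4 arrays (0.0646 to 0.138).

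Kif1b was not called on its brightest probe (log2 fold change -0.13, 95% interval -0.32 to 0.05), but its 5 probes above background divided by the transcript accession the array annotation gives. Where these probes lie on the transcripts was not analysed here. On the probe ILMN_3034877 for NM_008441 the arrays read 428, 430 and 416 in control and 785, 736 and 648 in knockdown cells, a log2 fold change of 0.76 with limma's adjusted p = 6.61e-07 over all probes. The other NM_008441 probe gave 0.34. The 3 probes for NM_207682 gave -0.13, -0.39 and -0.16, and the middle of these, ILMN_1239729, was called lower, from 1184 ± 212 to 899 ± 101 (SD, n = 3), with groups that overlapped. Kif3c was the other member with probes called in opposite directions, 0.40 and 0.49 on its brighter probes and -0.39 on one close to background. Kif23 had a probe annotated to a cDNA clone, AK076271, that rose by 0.69 from 794 ± 90.5 to 1276 ± 69.8 (SD, n = 3), while the 2 probes for its RefSeq transcript had -0.22 and -0.18.

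**Figure D3:**
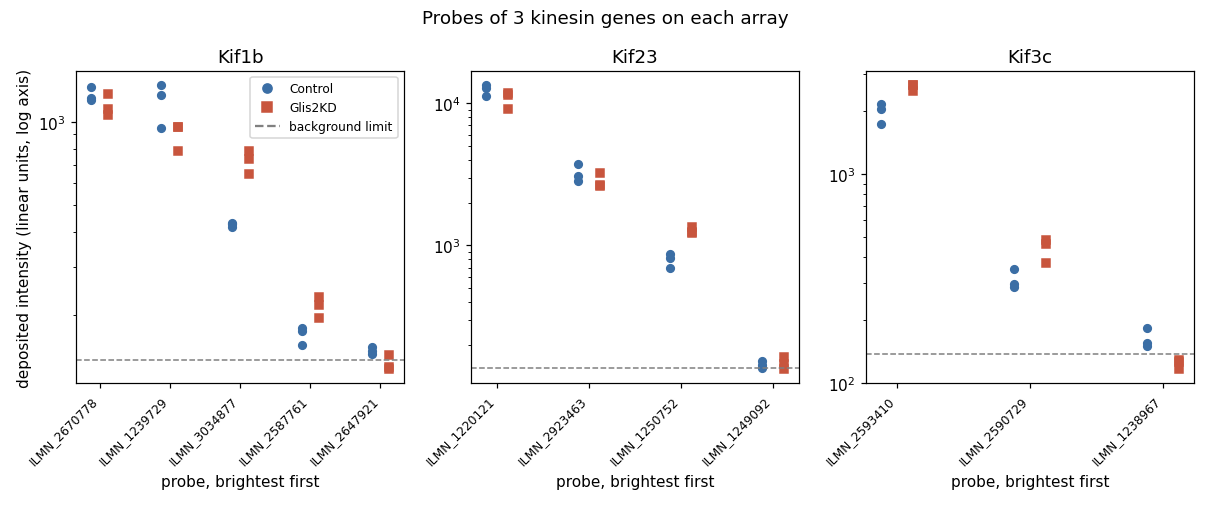
Deposited intensity on each array for the probes above background of Kif1b, Kif23 and Kif3c, on log axes, with Control arrays as circles, Glis2KD arrays as squares (3 each) and the background limit of 138 dashed. For Kif1b the probe ILMN_3034877 is higher in the knockdown and ILMN_1239729 lower; for Kif23 the clone probe ILMN_1250752 is higher.

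Of 18 genes with a Cenp symbol, placed together here as centromere genes, 5 were called higher and 1 lower. The symbol alone does not place each of their proteins at the centromere. Of the 16 above background 6 were called, beside 43.4% of all genes above background, so this number does not set centromere genes apart. Cenpv, a centromere protein also linked to microtubule bundling, read 805, 795 and 981 in control and 1463, 1617 and 1287 in knockdown cells, a log2 fold change of 0.76 ± 0.10 (SE, n = 3, limma's adjusted p = 2.89e-06). Cenpw and Cenpt, histone-fold partners in the inner kinetochore, rose together: Cenpw from 3754, 3951 and 4316 to 6955, 6378 and 5860, and Cenpt from 1194, 1296 and 1359 to 1976, 1685 and 1736. Their log2 fold changes were 0.67 and 0.49. Cenps, which shares the histone-fold complex with Cenpw and Cenpt, read 419, 415 and 411 against 547, 522 and 565, at 0.39. Cenpx, its own partner, had -0.00 (95% interval -0.22 to 0.21) on a probe close to background, with a mean intensity of 174. Cenph, of the constitutive network on centromeric chromatin, had 0.34, and lost its call without the third knockdown array (limma's adjusted p = 0.0578) and with background subtracted, where it had 0.41 (0.0913).

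Cenpa, the histone H3 variant that marks the centromere, was the member called lower. It read 22823, 22412 and 21196 in control and 18968, 16980 and 19949 in knockdown cells, a log2 fold change of -0.25 with limma's adjusted p = 0.0446. Its call was lost without any of 4 arrays, the first and second of each group (limma's adjusted p 0.0711 to 0.232), with background subtracted (0.113) and after normexp correction (0.142). Averaging its probes gave 0.0579 and the dimmer probe alone 0.285. The alternatives for Cenpa began at 0.00563. The other 10 centromere genes above background were not called and ran from -0.22 for Cenpf to 0.27 for Cenpm. Cenpe and Cenpo were not above background.

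Members below the background limit numbered 17 of 79: Aurkc, Bub1, Ccna1, Ccnb2, Cenpe, Cenpo, Kif12, Kif17, Kif20a, Kif21b, Kif26a, Kif2b, Kif5a, Kif5b, Kif7, Nuf2 and Racgap1. None was called, and for these probes the arrays give no measured direction. Mki67 and Ccnb1, which the choice names, were not analysed here.

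**Figure D4:**
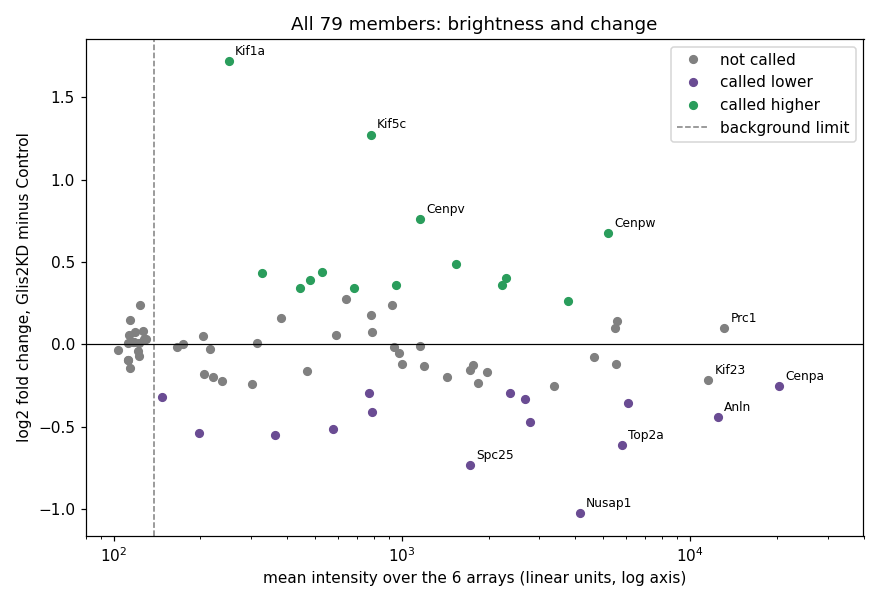
Mean intensity over the 6 arrays (log axis) against log2 fold change, knockdown minus control, for all 79 members, with the background limit of 138 dashed and calls by colour. The 17 members left of the limit were not called, and called members lie on both sides of 0.

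Some called members lie among neighbouring genes that shifted with them. Cdc25c, on chromosome 18, had -0.52 while the median of its 50 neighbouring genes above background was -0.45. Kif21a, on chromosome 15, had 0.34 beside a neighbour median of 0.38, and Incenp, on chromosome 19, 0.36 beside 0.25. Relative to their neighbours these 3 lost their calls (limma's adjusted p = 0.707, 0.862 and 0.451). For Kif1a, Kif5c, Nusap1 and Spc25 the neighbour medians were -0.07, -0.11, -0.17 and -0.03, and their calls were kept. Mad2l1, Plk1, Cenph, Bub1b, Kif9 and Kif13a also lost their calls on this scale (0.192, 0.300, 0.118, 0.0958, 0.0794 and 0.0502). The part of the neighbourhood in these results was not tested further.

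Among related genes outside the family, calls in the 7 lists described next are read against the 43.4% of genes above background that were called. The lists had 11 of 20, 5 of 16, 9 of 18, 7 of 19, 7 of 16, 11 of 23 and 7 of 17 genes above background called, in the order given. Of 23 genes of the anaphase-promoting complex and checkpoint partners, 8 were called higher and 3 lower, among them Zwint, a kinetochore protein, at 0.52, the complex subunits Anapc4 and Anapc5 at 0.42 and 0.39, and Cdc23 at -0.45. Cdc23 lies on chromosome 18, where its neighbours had a median of -0.46, and relative to them its call was lost (limma's adjusted p = 0.943), as was that of Zwint (0.0805). Of 17 further kinetochore genes 4 were lower and 1 higher. Hjurp, the chaperone that loads Cenpa, fell from 5841 ± 698 to 3226 ± 48.1 (SD, n = 3), a log2 fold change of -0.85, Itgb3bp, a centromere protein, had -0.79, and the spindle protein Spag5 had -0.42, while Pmf1, of the Mis12 complex, had 0.44. Spag5 had -0.44 with background subtracted, where its call was lost (limma's adjusted p = 0.154).

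Cohesin and condensin genes were called lower in 6 of 18 cases and higher in 3. The condensin subunits did not move together: Ncaph2 rose from 842 ± 109 to 1838 ± 64.4 (SD, n = 3), a log2 fold change of 1.13, while Ncapd3 and Ncaph had -0.64 and -0.47. The second probe of Ncapd3 was not above background. Stag2, a cohesin subunit on the X chromosome, had -1.09 beside a neighbour median of -0.75. Of 23 centrosome and spindle genes 5 were lower, among them Ckap2 (-0.67), Aspm (-0.63) and the minus-end motor Kifc1 (-0.54), and 2 were higher, among them Haus5, of the augmin complex, at 0.41. Aspm had -0.78 with background subtracted, where its call was lost (limma's adjusted p = 0.0883), and its second probe was not above background. Haus5 had 0.22 relative to its neighbours, and lost its call there (0.0769).

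Of 23 regulators of G2 and M, 4 were lower and 3 higher, with Gtse1 at 0.59, Cdc25a, the phosphatase of S phase entry, at 0.45, Cdca2 at -0.55 and Pbk at -0.39. A second Cdc25a probe above background gave 0.14 (limma's adjusted p = 0.382), and the second Cdca2 probe was not above background. Genes of DNA replication divided as 5 lower and 6 higher of 24. Fen1, the flap nuclease, had 0.58, while Gins4, Chaf1b and Cdt1 had -0.48, -0.41 and -0.45. Among 18 kinesin partners, dynein subunits and tubulins 4 were lower and 3 higher. Tuba1a, an alpha tubulin with near-identical paralogs that its probe may not tell apart, rose from 8941 ± 975 to 21226 ± 2064 (SD, n = 3), a log2 fold change of 1.25. The kinesin light chain Klc4 had -0.51, Kifap3, which links Kif3 motors to cargo, -0.58, and the dynein chain Dync1li1 0.43. With background subtracted Cdc25a, Fen1, Cdt1, Kifap3 and Dync1li1 had 0.56, 0.59, -0.47, -0.63 and 0.61, and their calls were lost (limma's adjusted p = 0.0653, 0.0931, 0.0708, 0.057 and 0.140). Over these 7 lists the medians of the log2 fold change lay between -0.11 and 0.07.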

How the data were processed

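The members, roles and gene lists were chosen with earlier results of these data known. The authors deposited 1 linear intensity per probe and array from an Illumina mouse bead array with Cy3 label, per the labels; their software and normalization were not given in the sources used here. In the deposited values the 6 arrays share a distribution, with log2 medians within 0.00029, and background was not subtracted (lowest intensity 85.4). Precision is limited by the number of arrays. The background limit adds 3 SD, taken from values below the most frequent value of 113.5, to that value.

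Of 45281 probes, 34885 had 1 symbol, 18 several and 10378 none, and 34807 matched RefSeq (GRCm38.p6) by Entrez identifier. Values were floored at 16 (0 affected) and transformed to log2. The groups were compared with limma 3.58.1 (lmFit, eBayes; R 4.3.3) and Benjamini-Hochberg adjustment over 19057 genes at 0.05; adjusted p-values of further probes of a gene came from the fit over all probes with a symbol or from the second-probe alternative. In simulated data of 19057 genes, with 50 genes planted at each size, changes of 0.25 (log2) were found in 26% of cases. Changes of 0.5 were found in 92%, and of 1 and 2 in 100%. Far fewer genes changed there than the 4291 called in the data, which makes the adjustment stricter, so these shares need not hold for the data. An "at least" fold puts the limit in place of arrays under it.

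Named were Glis2, every called member, up to 3 members with the highest intensity in roles with fewer than 3 calls, members whose probes were called in opposite directions, and up to 4 called genes per related list by smallest p. Other members named, and the Kif23 clone probe, were chosen after their values were seen. Alternatives covered normalization, floor, offset, background, filters, probes, neighbouring genes, the variance model, a replicate block and each array left out.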

Additional observations from a re-analysis of the deposited data

How the results depend on the processing

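Of 29 called members, 8 kept their call in every alternative run and 22 without each array in turn. Of those 8, 4 (Aurka, Cenps, Cenpt and Cenpv) have 1 probe, so the probe alternatives could not change them. The number of members called lower went from 15 to 7 with background subtracted and to 9 on the second-brightest probe. The number called higher went from 14 to 8 on that probe. Of the 29 calls, the second-brightest probe kept 15 and lost 14, and it gained 2, Cenpf and Kif1b. Genes called over the whole table went from 4291 to 2633 with background subtracted. Leaving out each array gave 11 to 18 members lower, 13 to 15 higher and 3754 to 3984 genes. Same-numbered arrays showed no common deviation from their group means (correlations -0.087, -0.041 and -0.050). With so few arrays this cannot show if same-numbered samples were handled together, and the labels do not say. With a replicate block 14 members were lower, 15 higher and 4130 genes called, and Cenpa lost its call (limma's adjusted p = 0.0645). On the second-brightest probe the sign of the log2 fold change reversed for Bub3 (-0.042), Cenpw (-0.036), Ect2 (0.041), Kif11 (0.156), Kif13b (0.273), Kif18a (0.078), Prc1 (-0.0050), Spc24 (-0.347), Cdc23 (0.033) and Itgb3bp (0.017), and Kif5c (0.973), Mad2l1 (0.0529), Kif1c (0.211), Cdc25b (0.236), Kif13a (0.264), Bub1b (0.694), Kif9 (0.604) and Cenph (0.807) lost their calls at the adjusted p given. The second probes of Cenpw, Ect2, Kif11, Prc1, Kif5c, Cenph, Kif9, Cdc23 and Itgb3bp were not above background and give no measured direction, and the same holds for Ncapd3 (0.962), Cdca2 (0.773), Aspm (0.799) and Dync1li1 (0.890), whose calls were also lost there. Signs reversed with the mean of the probes for Kif1b (0.045), Kif23 (0.082) and Spc24 (-0.093), and relative to neighbouring genes for Cdc23 (0.011), Kif21a (-0.025) and Prc1 (-0.056). The mean of the probes also ended the calls of Bub3 (0.124), Kif11 (0.506), Kif13b (0.690), Kif18a (0.256), Bub1b (0.161) and Kif3c (0.110), and normexp correction those of Bub1b (0.0841) and Kif11 (0.0697). The cause was not tested. Dim second probes and background included in the intensities limit what can be read from small changes.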

Other observations

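Several members lay close to the threshold. Cenpm (0.27), Kif16b (-0.24), Kif22 (-0.26), Kif2c (-0.24) and Kif2a (0.24) had limma's adjusted p between 0.0546 and 0.0723, just outside it, while Cenpa (-0.25, adjusted p = 0.0446) and Plk1 (0.26, 0.0308) lay just inside. The spread between replicates of the members above background was like that of other genes, with a median SD on the log2 scale of 0.11 in control and 0.10 in knockdown cells, against 0.11 and 0.10 over all genes above background.

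Of the called members, 16 had a further probe above background. These 20 further probes had the sign of the probe used in 16 cases, 8 of them called, and the opposite sign in 4, 1 of them called.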
